A study of Mus musculus with 17 samples.

Results

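The 10 genes described here encode the mouse MHC class II molecules and the proteins that load and control them. They were chosen by name, as the rows of the deposited table of FPKM (fragments scaled by transcript length and by sequencing depth) whose gene symbol equals that of a member, out of 30843 loci in all, 22724 of them named. Of the 10 members, 9 had a row of their own. H2-DMb1 shared 1 locus with its near-identical neighbour H2-DMb2, and that shared locus is given beside the members but not counted with them. Ciita had 2 loci. The one with the higher values is used. Its 9 annotated neighbours in the locus numbering lie on the strand of Ciita, and those of the other locus on the opposite strand. The second locus was below 1 FPKM in each of the 8 columns.

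RNA with a poly(A) tail from whole mammary glands of nulliparous female mice, all labelled C57Bl/6, was sequenced in 4 genotypes. AROM mice are labelled tet-op-CYP19A1MMTV-rtTA and carry a tetracycline-inducible gene of aromatase, the enzyme that makes estrogens. CERM mice are labelled tet-op-Esr1MMTV-rtTA and carry a tetracycline-inducible gene of estrogen receptor alpha. BRCA mice are labelled Brca1fl11/fl11/MMTV-Cre/p53+/-, a conditional loss of the DNA repair gene Brca1 with 1 intact p53 allele, and WT mice are wild type. The MMTV promoter drives the rtTA activator and Cre mainly in mammary epithelium, while the glands also hold fat, stroma and immune cells. The sample labels used here name no age and no treatment. They list 17 libraries, single-end (2 for each genotype) and paired-end (3 AROM, 3 CERM, 2 BRCA and 1 WT), but the table holds 1 value per gene for each genotype and layout. There was therefore no spread between replicates and no p-value, and the per-library depth is unknown. The layouts are not replicates of each other, since the labels do not say that they came from different mice. A difference between genotypes is called when FPKM + 1 was at least 2-fold apart, and is read mainly where this held in both layouts.

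Several facts of the whole table bear on every value. Between the layouts of 1 genotype, 3.62% of the 13603 named loci analysed were at least 2-fold apart in AROM, 3.82% in CERM, 2.6% in BRCA and 3.16% in WT. In the WT columns 66.7% of the nonzero single-end and 66.5% of the paired-end values carry 10 or more decimals, as means of 3 numbers do, against at most 0.0307% in the other columns. What was averaged is not stated. Trp53 was at 12.3 and 12.1 FPKM in the BRCA columns against 41.1 and 34.5 FPKM in the WT columns, single-end value first here and below. Brca1, the gene targeted in BRCA, was higher there, at 3.28 and 3.29 FPKM against 1.13 and 0.851 FPKM in WT; the value covers the whole locus, not the targeted exon alone, and does not check the deletion. Esr1 was at 8.49 and 8.41 FPKM in CERM against 7.27 and 6.89 FPKM in WT, under 2-fold apart, so the CERM label was not checked by its gene. The AROM transgene is labelled with the human symbol, and the mouse locus Cyp19a1 was at 0.0591 and 0.0502 FPKM in AROM and is listed at 0 in the other columns. Mpeg1, a macrophage gene used below, is listed at 0 in every paired-end column. The 3 comparisons with WT share its columns, and each genotype enters several pairs, so they are not independent of each other.

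MHC class II molecules show peptides from the endosomes to CD4 T cells. Each molecule pairs an alpha with a beta chain. In the mouse, H2-Aa and H2-Ab1 encode the chains of I-A, and H2-Ea and H2-Eb1 those of I-E. The invariant chain, encoded by Cd74, guides new molecules to the endosome and fills their groove. DM, made from H2-DMa and H2-DMb1, exchanges its last fragment for peptide, and DO, made from H2-Oa and H2-Ob, restrains DM in B cells. Ciita encodes the transactivator without which the genes stay nearly silent. It works through RFX and NF-Y factors bound to the conserved X and Y boxes of these promoters. B cells, dendritic cells and activated macrophages are the main expressing cells. C57BL/6 mice carry a deletion at the start of the I-E alpha gene, which is why their copy is named as a pseudogene, H2-Ea-ps, and they make no I-E.

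The promoter stretches that carry the X and Y boxes are shown because these boxes are the known route by which the transactivator acts on class II promoters. RefSeq windows of build GRCm38.p6 from 250 bases before to 50 bases after a start were examined for 6 of the 10 members. Cd74 was left out of this search, and H2-Ab1, H2-Ea-ps and Ciita had no window. The windows were searched on both strands for GNAAC, the core of the X box, followed after 10 to 40 bases by GATTGG, the Y box. Capitals mark these matches, which do not overlap, and every window is written 5′ to 3′ on the strand of its gene. H2-Eb1 (chr17:34305617-34305916, plus strand) and H2-Aa (chr17:34287774-34288073, minus strand) are given whole, since they encode chains of I-E and I-A, and H2-Eb1 differed between BRCA and CERM where H2-Aa did not reach 2-fold. H2-DMb1 (chr17:34153085-34153146), H2-Oa (chr17:34092291-34092352), H2-Ob (chr17:34238806-34238864) and H2-Eb2 (chr17:34325531-34325591), a neighbouring class II gene that is no member, are all on the plus strand and are given around the boxes.
H2-Eb1: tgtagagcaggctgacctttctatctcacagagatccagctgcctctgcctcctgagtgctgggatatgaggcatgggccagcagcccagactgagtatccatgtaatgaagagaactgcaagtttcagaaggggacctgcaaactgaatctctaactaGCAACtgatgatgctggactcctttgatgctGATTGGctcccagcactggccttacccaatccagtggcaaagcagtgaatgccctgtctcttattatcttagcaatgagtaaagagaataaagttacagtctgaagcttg
H2-Aa: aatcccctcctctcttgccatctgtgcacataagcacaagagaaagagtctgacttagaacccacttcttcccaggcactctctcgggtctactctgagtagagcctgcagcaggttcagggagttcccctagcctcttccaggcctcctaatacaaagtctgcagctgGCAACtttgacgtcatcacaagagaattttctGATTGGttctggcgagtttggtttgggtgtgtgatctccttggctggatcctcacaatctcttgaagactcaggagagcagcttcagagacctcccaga
H2-DMb1: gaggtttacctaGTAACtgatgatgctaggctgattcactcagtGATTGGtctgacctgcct
H2-Oa: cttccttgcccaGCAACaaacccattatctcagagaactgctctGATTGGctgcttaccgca
H2-Ob: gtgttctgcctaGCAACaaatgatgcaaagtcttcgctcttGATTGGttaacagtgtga
H2-Eb2: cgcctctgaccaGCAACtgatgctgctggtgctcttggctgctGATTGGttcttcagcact

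The pair of boxes was found for 5 of the 6 members examined. The boxes lay 26 bases apart in H2-Eb1 and H2-Eb2, 27 in H2-Aa, H2-DMb1 and H2-Oa, and 24 in H2-Ob. Of all 32851 promoter windows of that length, 1.69% held the pair on either strand, 16.1% held GATTGG and 84.8% held GNAAC. The windows of H2-DMa, and that of the non-member H2-DMb2, held no such pair, which says only that these letters are not in those windows. The search was written after the sequences had been read, and a match is a description of the letters.

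H2-Ea-ps stood apart from the other members. It was at 28.1 and 13.2 FPKM in AROM, 3.68 and 1.60 FPKM in CERM, 0.113 and 0.0673 FPKM in BRCA, and 58.4 and 48.1 FPKM in WT. The order WT, AROM, CERM, BRCA was the same in both layouts. The single-end and paired-end values of 1 genotype lay closer to each other than to those of any other genotype in CERM, BRCA and WT on the log2 scale used. The AROM values were 2.06-fold apart between layouts, and this was the only layout difference past 2-fold among the 9 members with rows. In WT the level stood at the 90.5th and 89.9th percentile of all loci analysed, and in BRCA at the 0.684th and 2.07th. A gene that is silent in C57BL/6 was thus well expressed in the WT and AROM columns, which goes against their strain label, while the BRCA columns were near 0. The strain background of the mice was not tested.

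H2-Ea-ps was at least 2-fold lower in both layouts in each of the 6 pairs of genotypes. The log2 ratio of FPKM + 1 of BRCA over WT was -5.74 single-end and -5.52 paired-end, the 5th lowest of the 13603 loci in either layout. For CERM over WT it was -3.66 and -4.24, the 7th lowest in either layout. For AROM over WT it was -1.03 and -1.79, so the single-end value lay just past 2-fold. The ratio was -2.64 and -2.44 for CERM over AROM, -4.71 and -3.73 for BRCA over AROM, and -2.07 and -1.29 for BRCA over CERM. The pseudocount makes these ratios smaller than those of the FPKM values, most of all in BRCA. The share of all loci at least 2-fold lower in both layouts was 1.35% for AROM over WT, 0.426% for CERM over WT, 1.0% for BRCA over WT, 0.213% for CERM over AROM, 1.45% for BRCA over AROM and 1.32% for BRCA over CERM. None of the other 8 members was 2-fold lower in both layouts in any of these pairs.

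Its partner chain gene H2-Eb1 went another way. H2-Eb1 was at 29.9 and 45.6 FPKM in AROM, 47.4 and 71.0 FPKM in CERM, 222 and 231 FPKM in BRCA, and 50.6 and 50.7 FPKM in WT. Both BRCA values were more than 3 times every other value. Both AROM values lay below every CERM and WT value, and CERM and WT overlapped. FPKM is scaled by length, so the chain genes can be set against each other within a column. The ratio of H2-Ea-ps to H2-Eb1 was 0.940 and 0.289 in AROM, 0.0776 and 0.0226 in CERM, 0.000508 and 0.000292 in BRCA, and 1.15 and 0.948 in WT. The WT columns and the single-end AROM column thus held about equal levels of the I-E chain genes, and the BRCA columns almost none of the alpha chain beside the highest level of the beta chain.

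**Figure D1:**
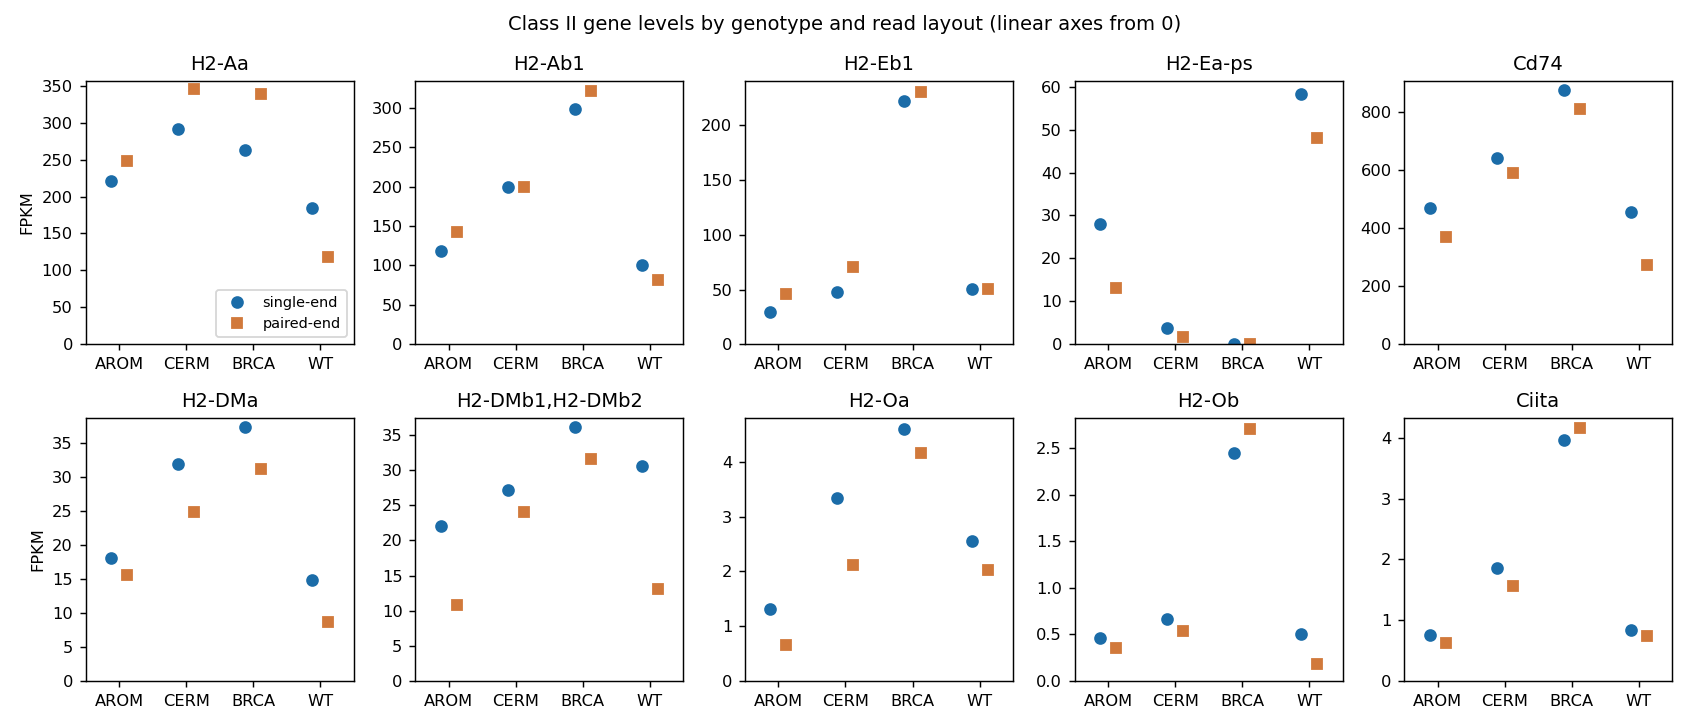
FPKM of the class II members (H2-DMb1 at the locus it shares with H2-DMb2) on linear axes from 0, for the genotypes AROM, CERM, BRCA and WT. Circles are the single-end and squares the paired-end columns, 1 pooled value each; H2-Ea-ps is highest in WT and near 0 in BRCA, while H2-Ab1, H2-Eb1, Cd74, H2-Oa, H2-Ob and Ciita are highest in both BRCA columns.

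The I-A genes were highest in BRCA and CERM. H2-Ab1, the beta chain gene, was at 118 and 142 FPKM in AROM, 199.5 and 199.7 FPKM in CERM, 299 and 322 FPKM in BRCA, and 101 and 81.7 FPKM in WT. The order BRCA, CERM, AROM, WT was the same in both layouts, with no overlap between neighbours. H2-Aa, the alpha chain gene, was at 221 and 249 FPKM in AROM, 291 and 345 FPKM in CERM, 262 and 339 FPKM in BRCA, and 184 and 119 FPKM in WT. CERM and BRCA overlapped, and their log2 ratio (BRCA over CERM) was -0.15 and -0.03. WT lay below AROM in both layouts, by little in the single-end columns (log2 ratio of AROM over WT 0.27) and by 2.09-fold in the paired-end ones, where the WT value was 1.55-fold under its single-end value.

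The balance of the chains therefore differed with genotype. H2-Aa stood at 1.88 and 1.75 times H2-Ab1 in AROM, 1.46 and 1.73 times in CERM, 0.877 and 1.05 times in BRCA, and 1.82 and 1.45 times in WT. Both BRCA ratios were below the other 6. H2-Eb1 stood at 0.253 and 0.320 of H2-Ab1 in AROM, 0.238 and 0.356 in CERM, 0.742 and 0.716 in BRCA, and 0.502 and 0.621 in WT. By this ratio AROM and CERM overlapped and lay below WT, and BRCA lay above it. Such ratios do not move when a whole column is scaled by 1 factor. These genes are highly polymorphic between mouse strains and the authors aligned to mm9, a C57BL/6 genome. How far the alleles of the mice set these values was not tested.

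**Figure D2:**
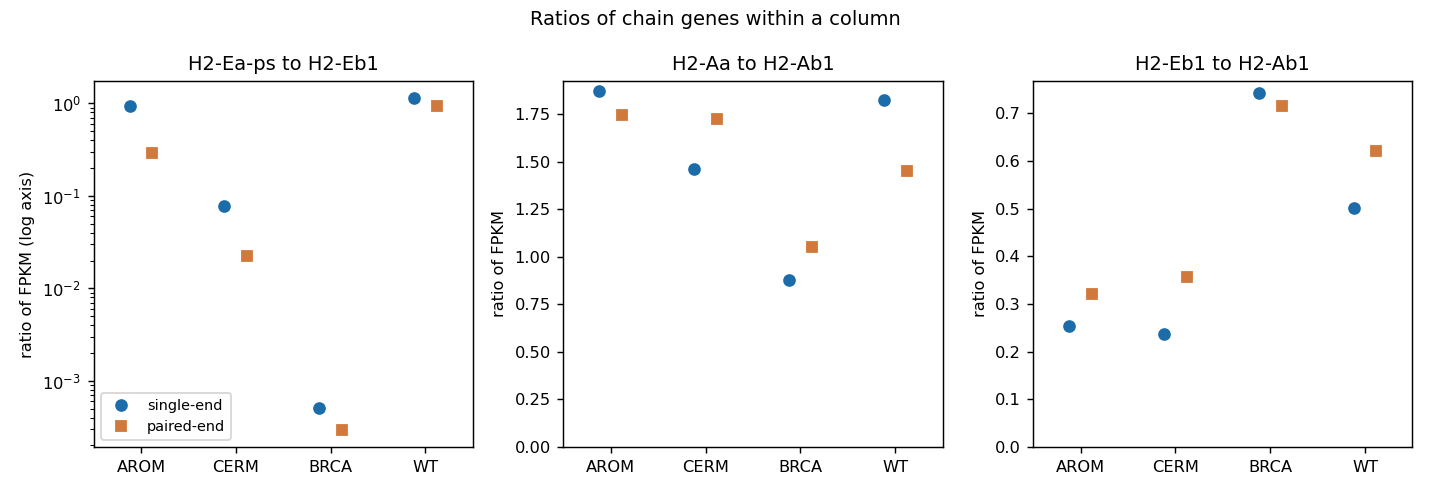
Ratio of FPKM between chain genes within each column, H2-Ea-ps to H2-Eb1 on a log axis and the other ratios on linear axes from 0, by genotype (AROM, CERM, BRCA, WT). Circles are single-end and squares paired-end columns; the first ratio runs from 1.15 in WT to 0.000292 in BRCA, and H2-Aa to H2-Ab1 is lowest in BRCA.

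Among the genes that act on class II molecules, Cd74 was the most abundant. It was at 468 and 368 FPKM in AROM, 642 and 590.0 FPKM in CERM, 878 and 813 FPKM in BRCA, and 456 and 275 FPKM in WT. The BRCA and CERM values lay above all AROM and WT values, and AROM and WT overlapped. H2-DMa, the alpha chain gene of DM, was at 18.1 and 15.6 FPKM in AROM, 32.0 and 24.9 FPKM in CERM, 37.3 and 31.1 FPKM in BRCA, and 14.9 and 8.63 FPKM in WT. BRCA and CERM overlapped across layouts, as the paired-end BRCA value was below the single-end CERM value, and both lay above AROM and WT. H2-DMa stayed between 0.0314 and 0.0498 of Cd74 in all 8 columns.

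The locus shared by H2-DMb1 and H2-DMb2 was at 22.0 and 10.8 FPKM in AROM, 27.2 and 24.0 FPKM in CERM, 36.2 and 31.5 FPKM in BRCA, and 30.5 and 13.1 FPKM in WT. The values in AROM and WT depended strongly on the layout, and in WT the layouts were 2.23-fold apart. BRCA over WT was 0.24 single-end and 1.20 paired-end on the log2 scale, so the call was made in 1 layout only. Reads of the near-identical genes cannot be assigned to either here.

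The DO genes were low throughout. H2-Oa was at 1.30 and 0.662 FPKM in AROM, 3.34 and 2.11 FPKM in CERM, 4.61 and 4.17 FPKM in BRCA, and 2.56 and 2.02 FPKM in WT. It was lowest in AROM in both layouts, and CERM and WT overlapped. H2-Ob, the beta chain gene of DO, was at 0.463 and 0.353 FPKM in AROM, 0.665 and 0.536 FPKM in CERM, 2.45 and 2.70 FPKM in BRCA, and 0.504 and 0.177 FPKM in WT. It passed the filter on low values only through the BRCA columns, so that the direction of its difference there follows from the filter. Both CERM values lay above all AROM and WT values, and AROM and WT overlapped.

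Ciita, the transactivator gene, followed the same order as H2-Oa. It was at 0.760 and 0.616 FPKM in AROM, 1.86 and 1.56 FPKM in CERM, 3.96 and 4.15 FPKM in BRCA, and 0.832 and 0.743 FPKM in WT. Both BRCA values lay above both CERM values, and these above AROM and WT, which overlapped. Ciita passed the filter only through BRCA and CERM columns. The ratio of Ciita to Cd74 was 0.00162 and 0.00167 in AROM, 0.00290 and 0.00265 in CERM, 0.00451 and 0.00511 in BRCA, and 0.00182 and 0.00270 in WT. By this ratio BRCA was highest in both layouts, and CERM and WT overlapped.

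Over the 8 members other than H2-Ea-ps that passed the filter, the largest medians were those of BRCA over WT and BRCA over AROM. In BRCA over WT, 5 of the 8 were at least 2-fold higher in the single-end columns, where 3.71% of all loci were, and 7 in the paired-end columns, where 4.95% were. In both layouts these were H2-Ab1, H2-Eb1, H2-DMa, H2-Ob and Ciita, against a background of 3.0%. Without H2-Ob and Ciita, 3 of 6 were higher in both. The median log2 ratio of the 8 was 1.23 and 1.61, beside 0.04 and 0.10 over all loci. In BRCA over AROM, 6 of 8 were higher single-end (background 5.42%) and 6 paired-end (10.5%), and 5 in both layouts (4.78%), or 3 of 6 without H2-Ob and Ciita, with medians of 1.26 and 1.31. Over all loci the medians were 0.03 and 0.20, and in CERM over AROM -0.02 and 0.17, so the paired-end AROM column lies low as a whole. In BRCA over CERM, 2 of 8 were higher single-end (2.98%) and 3 paired-end (2.87%). Of these H2-Eb1 and H2-Ob were higher in both layouts (1.83%), or 1 of 6 without H2-Ob and Ciita, with H2-Eb1 at 4.60-fold and 3.22-fold. The medians were 0.52 and 0.71, beside 0.05 and 0.05 over all loci. Both BRCA values exceeded the other 6 columns for 6 of the 8 members, and for 4 of 6 without H2-Ob and Ciita, as they did for 28.5% of all loci.

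CERM also differed from WT, by less. In CERM over WT, 1 of 8 members was at least 2-fold higher single-end (background 3.72%) and 4 paired-end (3.76%). H2-DMa was the one higher in both layouts (1.15% of all loci), at 2.08-fold and 2.68-fold. H2-Ab1 was at 1.97-fold single-end, just under the threshold, and 2.43-fold paired-end. The median of the 8 was 0.57 and 0.83, beside -0.04 and 0.04 over all loci, and H2-Eb1 did not share it, with log2 ratios of -0.09 and 0.48. In CERM over AROM, none of the 8 was 2-fold higher single-end (2.01%), paired-end (4.17%) or in both layouts (1.42%). The medians were 0.68 and 0.63, beside -0.02 and 0.17 over all loci.

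AROM and WT were close. In AROM over WT none of the 8 was 2-fold higher single-end (2.43%) and 1, H2-Aa, paired-end (2.04%), with none in both layouts (0.397%). The medians were -0.00 and 0.31, beside -0.00 and -0.07 over all loci. H2-Oa was lower in AROM without reaching 2-fold, with log2 ratios of -0.63 and -0.86, and H2-Eb1 likewise, with -0.74 and -0.15.

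**Figure D3:**
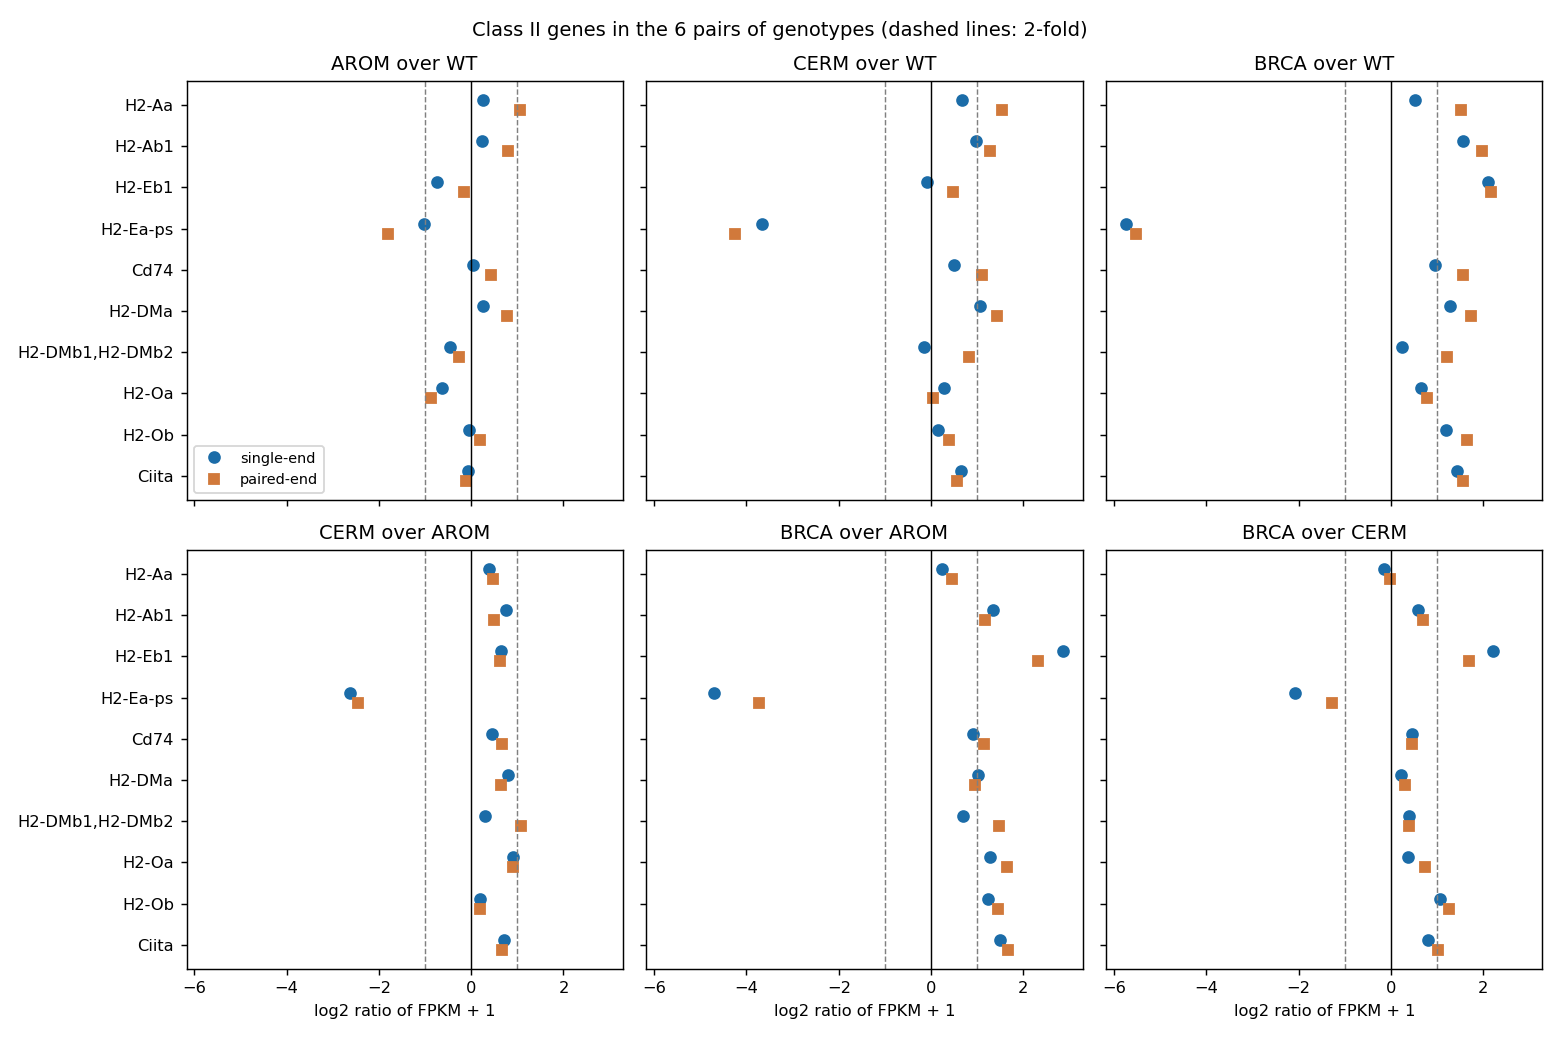
Log2 ratio of FPKM + 1 for the class II genes in the 6 pairs of genotypes, the first-named genotype over the second. Circles are single-end and squares paired-end columns, dashed lines mark 2-fold; H2-Ea-ps lies beyond the lower line in all pairs, and H2-Eb1 is above 4-fold in BRCA over WT.

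Along chromosome 17 the genes next to H2-Ea-ps had other patterns. The listed genes there lie in the order H2-Ab1, H2-Aa, H2-Eb1, H2-Eb2, H2-Ea-ps, Btnl2. H2-Eb2, next to H2-Ea-ps on one side and also a class II beta chain gene, was at 0.125 and 0.0486 FPKM in AROM, 0.112 and 0.110 FPKM in CERM, 1.27 and 1.18 FPKM in BRCA, and 0.193 and 0.0721 FPKM in WT. It passed the filter only through the BRCA columns. Btnl2, a butyrophilin-like gene on the other side, was at 1.34 and 1.35 FPKM in AROM, 0.753 and 0.748 FPKM in CERM, 0.472 and 0.346 FPKM in BRCA, and 0.831 and 0.451 FPKM in WT, lowest in BRCA and highest in AROM in either layout. It passed the filter only through the AROM columns, so that its being highest there follows from the filter. Of the 10 neighbours listed, 8 had a row of their own and 7 of these passed the filter. None of the 7 was 2-fold higher or lower in both layouts against WT in any genotype. Over all loci 0.397% to 3.0% were higher and 0.426% to 1.35% lower, so for 7 genes this count says little. Tap1, a subunit gene of the peptide transporter of class I loading, was 2-fold higher in both layouts in CERM over AROM and in BRCA over AROM, at 12.4 and 12.8 FPKM in AROM, 36.6 and 27.1 FPKM in CERM, and 33.7 and 34.2 FPKM in BRCA.

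**Figure D4:**
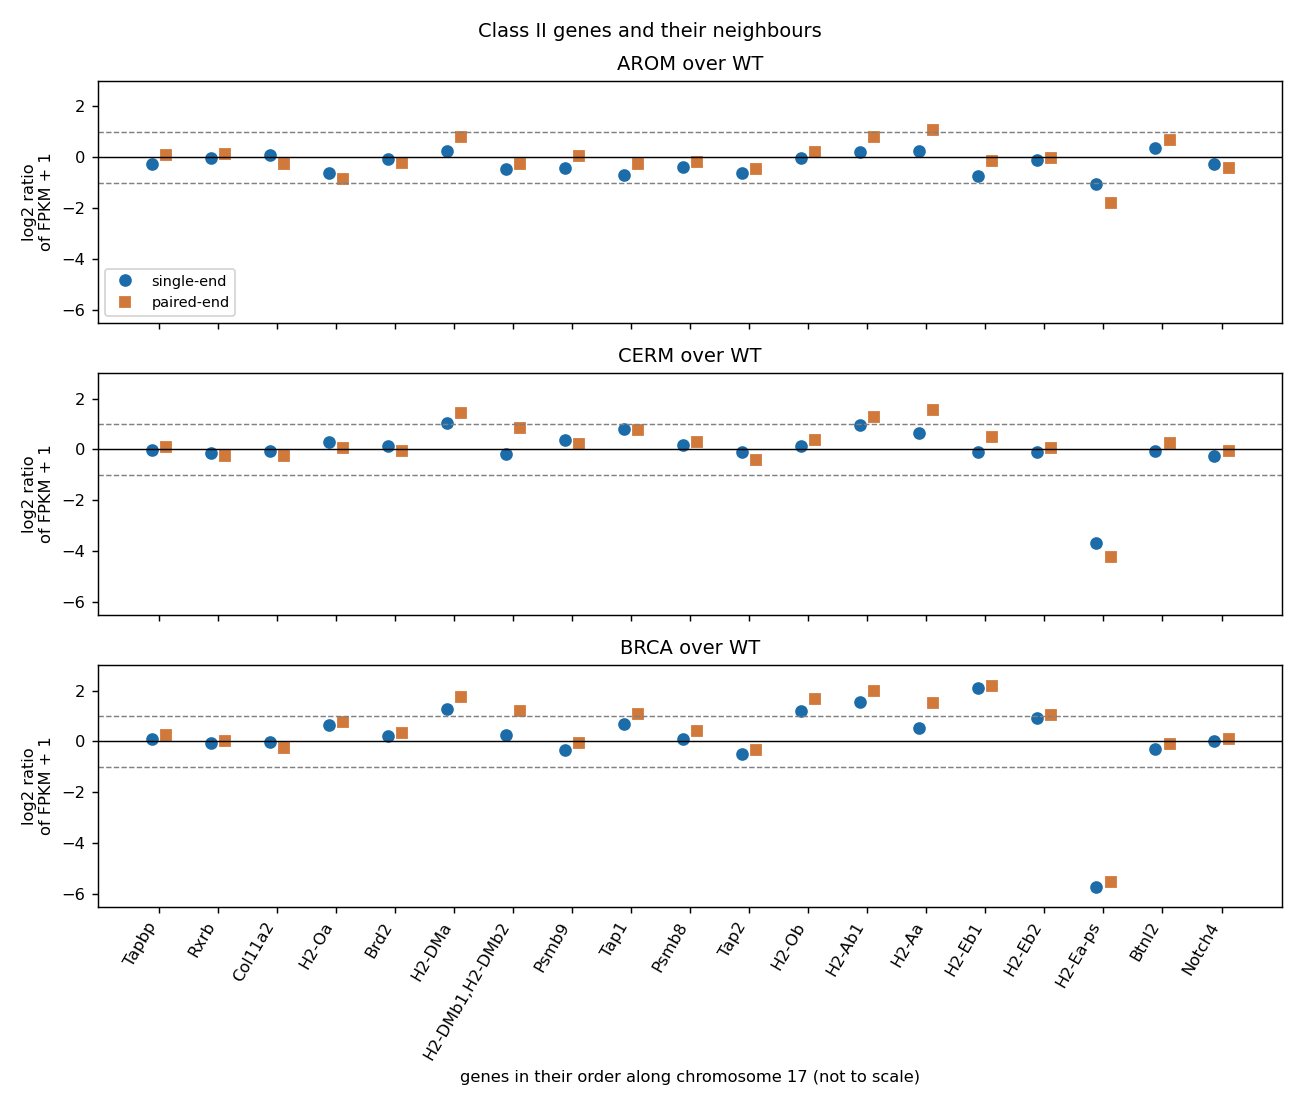
Log2 ratio of FPKM + 1 over WT for the class II genes of chromosome 17 and their listed neighbours, in gene order and not to scale (Tapbp and Notch4 at loci shared with other genes). Circles are single-end and squares paired-end columns; H2-Ea-ps lies far below its neighbours in CERM and BRCA, while H2-Eb1 is above 2-fold in BRCA.

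The genes with the most similar pattern were named by their Pearson correlation of log2(FPKM + 1) over the 8 columns, among 10477 loci with a symbol of their own and a mean of at least 2 FPKM. The columns come in pairs from the same genotypes, so this compares little more than 4 conditions. For H2-Ea-ps these were Dok4 (0.996), Chn1 (0.986), Zfyve19 (0.985), Krtdap (0.976) and Rwdd3 (0.975). Their levels spanned less. Dok4, an adaptor gene of receptor tyrosine kinases, was at 5.29 and 4.91 FPKM in AROM, 4.35 and 4.01 FPKM in CERM, 3.53 and 3.68 FPKM in BRCA, and 5.81 and 5.88 FPKM in WT. For H2-Aa, H2-Ab1, H2-Eb1 and Cd74 taken by their mean correlation they were Pld4 (0.892), Asap1 (0.888), Svep1 (0.887), Tbc1d5 (0.886) and Cd37 (0.885). Pld4 is an endolysosomal nuclease gene of dendritic and B cells, and Cd37 encodes a tetraspanin of B cells. Pld4 was at 13.2 and 11.3 FPKM in AROM, 16.6 and 18.9 FPKM in CERM, 24.4 and 24.5 FPKM in BRCA, and 11.5 and 8.20 FPKM in WT.

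The genes of the DNA-bound partners of the transactivator differed by less. None of the 7 promoter factor genes (Rfx5, Rfxap, Rfxank, Nfya, Nfyb, Nfyc and Creb1) was 2-fold higher or lower in both layouts in any of the 6 pairs. Over all loci 0.213% to 4.78% were, by pair and direction, so for 7 genes this count says little. Creb1 was 2-fold higher in BRCA over AROM in the paired-end columns alone, where 10.5% of all loci were. Rfx5, the largest RFX subunit gene, was at 3.25 and 2.69 FPKM in AROM, 4.48 and 4.05 FPKM in CERM, 4.74 and 5.33 FPKM in BRCA, and 4.38 and 4.09 FPKM in WT, highest in BRCA and lowest in AROM in both layouts. In BRCA over WT it was only 1.07-fold and 1.24-fold higher. Nfya, Nfyc and Creb1 were also higher in BRCA than in WT in both layouts, and Rfxap, Rfxank and Nfyb were lower. Of the genes through which interferon-gamma induces Ciita, 9 of 10 had a row of their own and 8 passed the filter. Ifng, the interferon gene itself, was at 0.258 FPKM or less in all columns, and Irf1, a factor gene that acts on the Ciita promoter, lay between 22.0 and 36.3 FPKM.

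In BRCA, markers of cells that carry class II molecules were higher as well. The 10 B cell genes summed to 9.21 and 8.65 FPKM in AROM, 11.05 and 14.5 FPKM in CERM, 61.8 and 59.8 FPKM in BRCA, and 11.2 and 7.66 FPKM in WT. In BRCA over WT 9 of the 10 were 2-fold higher in both layouts, beside 3.0% of all loci, but 7 of the 10 reached 1 FPKM in the BRCA columns only. Cd79a, a chain gene of the B cell receptor, was at 1.46 and 1.18 FPKM in AROM, 1.62 and 1.68 FPKM in CERM, 16.0 and 15.5 FPKM in BRCA, and 2.40 and 1.57 FPKM in WT. Pax5, the factor that defines B cells, was at 0.0846 FPKM or less outside BRCA and at 1.14 and 1.07 FPKM in BRCA. The 9 macrophage genes with a row of their own summed to 339 and 304 FPKM in AROM, 359 and 491 FPKM in CERM, 579 and 557 FPKM in BRCA, and 335 and 243 FPKM in WT, and 5 of them (Csf1r, Itgam, Fcgr1, C1qb and Mrc1) were 2-fold higher in both layouts in BRCA over WT, beside the same 3.0%. In bulk tissue, more cells of a type and more RNA per cell cannot be told apart, and the part of these cells in the class II levels was not tested. In CERM over WT, H2-Ab1 and Cd74 were at 1.97-fold and 1.41-fold single-end, with B cell and macrophage sums close to those of WT. In the paired-end columns these genes were at 2.43-fold and 2.14-fold. The B cell sums there were 14.5 against 7.66 FPKM, and the macrophage sums 491 against 243 FPKM. The complement genes C1qa, C1qb and C1qc make up most of the macrophage sum in every column. In single-end WT they were at 123, 73.1 and 84.2 of 335 FPKM.

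Among dendritic cell genes, all with a row but Cd209a lay higher in BRCA than in WT in both layouts. With Cd209a counted, the median log2 ratio of BRCA over WT was 0.22 and 0.44, beside 0.04 and 0.10 over all loci. The 9 with a row summed to 26.1 and 17.6 FPKM in AROM, 24.6 and 32.6 FPKM in CERM, 37.0 and 35.8 FPKM in BRCA, and 23.5 and 18.0 FPKM in WT. In BRCA over WT, Siglech, Ccr7 and Irf8 were 2-fold higher in both layouts, beside 3.0% of all loci. Siglech is a marker of plasmacytoid cells, and Ccr7 the homing receptor gene of migrating dendritic cells and of lymphocytes. Ccr7 reached 1 FPKM in the BRCA columns only, so the direction of its difference follows from the filter. Siglech reached it outside BRCA only in the single-end AROM column (1.53 FPKM). It too passed the filter only through the BRCA columns, with the same limit. Cd209a, a lectin gene of monocyte-derived dendritic cells, was 2-fold lower in both layouts, beside 1.0% of all loci. It was at 0.404 and 0.454 FPKM in BRCA against 4.85 and 3.04 FPKM in WT, with 10.4 and 5.61 FPKM in AROM and 6.72 and 5.31 FPKM in CERM. Like H2-Ea-ps it was far lower in BRCA than in the other genotypes, but its highest values were in AROM and CERM.

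**Figure D5:**
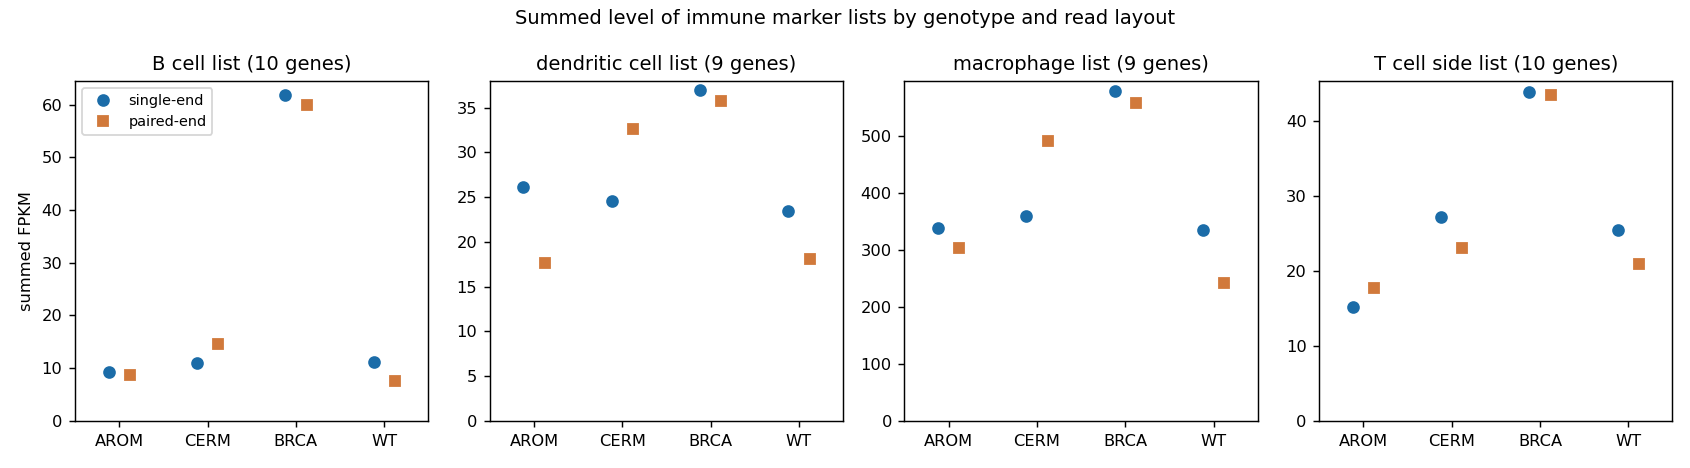
Summed FPKM of the B cell, dendritic cell, macrophage and T cell side lists (genes with a row of their own) on linear axes from 0, by genotype (AROM, CERM, BRCA, WT). Circles are single-end and squares paired-end columns; the B cell sum is 61.8 and 59.8 in BRCA and at most 14.5 elsewhere, and the macrophage sum in CERM differs between layouts.

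On the side of the responding T cells, 10 genes were listed and 8 passed the filter. Of the 8, 6 reached 1 FPKM outside BRCA, while Cd28 and Icos reached it in the BRCA columns only. Cd4, the coreceptor that binds class II molecules, was at 1.05 and 0.846 FPKM in AROM, 0.989 and 0.793 FPKM in CERM, 6.21 and 6.20 FPKM in BRCA, and 3.08 and 2.75 FPKM in WT. It was 2-fold lower in both layouts in CERM over WT, and 2-fold higher in BRCA over AROM and BRCA over CERM. The T cell receptor complex genes Cd3e, Cd3d and Cd3g lay above WT in CERM in both layouts without reaching 2-fold, with Cd3g at 9.98 and 7.43 FPKM in CERM against 6.78 and 5.42 FPKM in WT. Lck, the kinase gene of the T cell receptor, was the one of the 8 that was 2-fold higher in both layouts in BRCA over WT. Over all loci 3.0% were. Lck was at 8.70 and 8.14 FPKM in BRCA against 3.39 and 2.53 FPKM in WT. Lag3, whose product binds class II molecules as an inhibitory receptor, lay between 3.13 and 8.81 FPKM, highest in the paired-end AROM column and lowest in the paired-end BRCA column.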

How the data were processed

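The authors deposited 1 table of FPKM values (fragments scaled by transcript length and mapped depth), with 1 column per genotype and read layout per the file headers. The submitters' processing notes name build mm9 and the tools TopHat, Cufflinks, Trim Galore and FastQC. Their versions, the annotation and the way libraries were combined are not given here. Low values of loci did not share 1 ratio between columns (at most 8.41% within 1%), so whole reads were not recovered.

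The 13603 named loci that reached 1 FPKM in 2 or more columns entered every comparison. Log2 ratios used FPKM + 1, which understates ratios of low genes, and a call needs 2-fold. With pooled columns, the planned limma fit could not be run. The ratio and call were checked on simulated data (python 3.11.15, pandas 2.3.3, numpy 2.4.6). Alternatives were a pseudocount of 0.1, no filter, median-ratio scaling and quantile normalization, plus counts over other sets of members. The members, the 15 lists, and the rule for named genes (all members, listed genes and the 5 most alike) were chosen with earlier results of these data known. Of the lists, adipocyte, skeletal muscle, luminal epithelium, lymph node stroma, costimulation and endosomal processing are given in the closing section. March1, March8, Sppl2a and Ccl21a had no row under these symbols. Gene order and strands came from GENCODE M21 and promoter sequences from RefSeq (GRCm38.p6), a later build than the files use. The result for 1 gene of the interferon-gamma list is not reported here.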

Additional observations from a re-analysis of the deposited data

How the results depend on the processing

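The ratio of H2-Ea-ps kept its direction and stayed past 2-fold in all 12 comparisons under a pseudocount of 0.1, median-ratio scaling and quantile normalization. Counts of other members at least 2-fold higher moved by over 1.5 times, or to or from 0, under these settings, and the cause was not tested unless named. With a pseudocount of 0.1 the count was 2 in CERM over WT single-end and 2 in CERM over AROM in either layout, and 1 member was lower in AROM over WT paired-end; this pseudocount widens the ratios of low genes by construction. With median-ratio scaling it was 2 in CERM over WT and 1 in BRCA over CERM, both single-end; smaller moves were to 5 single-end and 4 paired-end in BRCA over AROM and to 2 in BRCA over CERM paired-end. With quantile normalization it was 0 in AROM over WT paired-end. Chosen after seeing the data, leaving out H2-Ob and Ciita gave 3 in BRCA over WT single-end and 1 in BRCA over CERM in either layout, as fewer genes are counted. Adding the locus shared by H2-DMb1 and H2-DMb2, also chosen later, gave 1 in CERM over AROM paired-end. Dropping the filter moved no count. The median of the other members in CERM over WT paired-end was 1.15 with the smaller pseudocount and 1.19 without H2-Ob and Ciita, and that of AROM over WT single-end, near 0, was 0.01 with quantile normalization and 0.13 without H2-Ob and Ciita.

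No paired analysis was possible because the columns carry no replicate numbers, and for the same reason no replicate was left out. Pooled columns limit every value: no error is known, and low genes such as H2-Ob, H2-Oa and Ciita rest on an unknown number of reads.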

Other observations

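Endosomal processing genes varied with layout in CERM. Of the 8 with a row of their own, none was 2-fold higher or lower in both layouts in any comparison with WT. Over all loci 0.397% to 3.0% were higher and 0.426% to 1.35% lower, so for 8 genes this count says little. Ctss, the protease gene that degrades the invariant chain, was at 51.4 and 36.2 FPKM in AROM, 77.1 and 254 FPKM in CERM, 165 and 158 FPKM in BRCA, and 87.2 and 65.3 FPKM in WT, single-end value first. Itgax, an integrin gene of dendritic cells and macrophages, was at 2.75 FPKM single-end and 12.3 FPKM paired-end in CERM, and Emr1, the F4/80 gene of macrophages, at 6.44 and 25.6 FPKM. Over the same layouts of CERM, Cd74 was at 642 and 590.0 FPKM and Ciita at 1.86 and 1.56 FPKM. H2-Eb1 was at 47.4 and 71.0 FPKM and H2-Aa at 291 and 345 FPKM there. The paired-end CERM column thus held more Ctss, Itgax, Emr1, H2-Eb1 and H2-Aa than the single-end one. Cd74 and Ciita were only slightly lower there, with log2 ratios of -0.12 and -0.16 beside a median of -0.08 over all loci.

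Cd83, which keeps class II molecules on the surface, was at 2.82 and 2.52 FPKM in AROM, 4.91 and 9.48 FPKM in CERM, 8.68 and 8.35 FPKM in BRCA, and 2.79 and 1.63 FPKM in WT. It was 2-fold higher in both layouts in BRCA over WT. Of the 6 costimulation genes 5 passed the filter, and none was 2-fold higher or lower in both layouts in any pair. Over all loci 0.213% to 4.78% were, by pair and direction, so for 5 genes this count says little. Cd86, a ligand gene for the T cell receptor partner CD28, was at 3.93 and 3.65 FPKM in BRCA against 1.78 and 1.33 FPKM in WT.

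Lymph node stroma and tissue makeup differed too. Glycam1, a mucin gene of lymph node vessels and of mammary epithelium, was at 4.99 and 5.50 FPKM in AROM, 65.5 and 37.2 FPKM in CERM, 512 and 458 FPKM in BRCA, and 518 and 450.2 FPKM in WT. It was 2-fold lower in both layouts in AROM and in CERM over WT, as was Madcam1, an adhesion gene of such vessels. Madcam1 was also 2-fold lower in both layouts in BRCA over WT, at 1.47 and 1.35 FPKM in BRCA against 10.2 and 8.06 FPKM in WT. Cxcl13, the B cell attracting chemokine gene of lymphoid follicles, was at 15.2 and 13.4 FPKM in BRCA against 2.59 and 1.56 FPKM in WT. Luminal epithelial genes summed to 370.4 and 216 FPKM in AROM, 520.1 and 499 FPKM in CERM, 734 and 725 FPKM in BRCA, and 749 and 598 FPKM in WT, and Cdh1 and Elf5 were 2-fold lower in both layouts in AROM over WT. Adipocyte genes summed to 2458 and 3842 FPKM in AROM, 1906 and 2340 FPKM in CERM, 1372 and 1306 FPKM in BRCA, and 1970 and 1530 FPKM in WT. Skeletal muscle genes summed to 19894 and 13200 FPKM in AROM, 22138 and 16338 FPKM in CERM, 9315 and 9328 FPKM in BRCA, and 7048 and 12021 FPKM in WT. The part of these tissue differences in the class II levels was not tested.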
